A study of Mus musculus with 6 samples.

Results

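The cytosolic ribosomal protein genes encode the proteins of the ribosome that works in the cytosol. They were chosen by symbol: Rpl or Rps followed by digits and at most a short letter suffix, together with Rplp0, Rplp1, Rplp2, Rpsa and Fau, leaving out pseudogene symbols with -ps and the Rps6k kinases. The rule found 85 of the 54446 genes in the deposited tables, 52 of the large subunit and 33 of the small subunit including Fau, and it used no measured value. Of the 85 genes, 82 are annotated as protein-coding and 3 as pseudogenes (Rps4l, Rpl32l and Rpl6l). The study compared stem-like Lewis lung carcinoma cells, a transplantable mouse lung tumour line of wild-type genotype, in 3 libraries of cells treated with RT-MPs and 3 Control libraries. All cells were grown in DMEM with 2% fetal bovine serum and collected at 48 h, and the labels do not spell out what RT-MPs are. The labels do not say whether the 3 libraries of a group are from independent cultures, and the p-values below therefore speak only to the variation among these 6 libraries, which may be technical.

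A ribosome is built from a small subunit that decodes the message and a large subunit that joins amino acids, and each carries a defined set of proteins, most of them present once per ribosome, that are assembled on ribosomal RNA in the nucleolus. Ribosomal protein genes are among the most highly transcribed genes of growing cells. Their messages begin with a run of pyrimidines, the 5′ terminal oligopyrimidine tract, through which mTORC1 and the RNA-binding protein Larp1 control their translation, so that message level and protein output can move separately. Proteins that find no partner in a subunit are degraded, and a few free ones, mainly Rpl5 and Rpl11, bind Mdm2 and so stabilise p53.

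RNA was extracted with Trizol and made into stranded mRNA libraries, and levels are given as FPKM, reads on a gene scaled to its exon length and to the total of the library. Depth, worked out from the steps between low FPKM values, was 16951004 to 21876551 reads in RT-MPs libraries and 18797872 to 20715396 reads in Control libraries. One library, RT-MPs replicate 3, was unlike the rest. The sum of FPKM over all genes was 585752 in it, 296966 and 302593 in the other RT-MPs libraries, and 302160 to 303798 in Control. In that library 6.56% of reads fell on Gm42418, Gm26917, Gm23935, Lars2 and Rn7sk, against 0.148% to 0.175% in the other 5 libraries; these genes, which include rows known to collect ribosomal RNA reads, were chosen after their values were seen. The keratin Krt8 and the mesenchymal genes Vim and Fn1 were abundant (means of 159, 936 and 273 FPKM over the 6 libraries). The mesenchymal gene Cdh2, Epcam, the lung marker Nkx2-1, the stem-cell marker Nanog and the T cell gene Cd3e were at 0 in every library. Among other epithelial genes, Krt18 had a mean of 7.42 FPKM, Krt19 0.031 FPKM and Cdh1 0.020 FPKM. Among fibroblast genes, Dcn and Pdgfra had means of 41.1 and 14.4 FPKM, and Col1a1 a mean of 0.0065 FPKM. Of 8 stem-cell markers only Cd44 and Ly6a reached 1 FPKM.

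The first question was whether RT-MPs changed the message level of any ribosomal protein gene. With all 6 libraries, none was called higher or lower at an adjusted p of 0.05 among the 80 genes with a mean of at least 1 FPKM (limma on log2(FPKM + 1), adjusted over the 11915 genes tested). The background was 1.29% of all tested genes called higher and 2.7% called lower. The smallest adjusted p was 0.163, for Rpl30, and 1 gene had an unadjusted p under 0.05, against 27.3% of all tested genes. The voom model on recovered reads also called 0. On the deposited FPKM scale 75 of the 80 had a higher mean in RT-MPs than in Control, against 33.1% of all tested genes. After rescaling to a common FPKM sum, on which RT-MPs replicate 3 is scaled down, 8 did so. On that sum the median log2 change was -0.15 for these genes and -0.33 for all tested genes. On the FPKM scale the median log2 change was 0.15, from -0.30 for Rps27a to 0.42 for Rps29, and the median over all tested genes was -0.09. In 25 genes every RT-MPs library was above every Control library, against 9.61% of all tested genes, and in 0 genes below, against 30.4%.

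RT-MPs replicate 3 set most of that difference. It was the highest of the 6 libraries for 72 of the 80 genes, against 23.7% of all tested genes. Measured against the Control mean, the median log2 ratio of the 80 genes was 0.07 in RT-MPs replicate 1, 0.01 in replicate 2 and 0.38 in replicate 3, while the medians of all tested genes were -0.06, -0.06 and -0.14. RT-MPs replicate 1 was above all 3 Control libraries for 58 genes. RT-MPs replicate 2 was above all of them for 28 genes and below all of them for 23. Without RT-MPs replicate 3 the median log2 change was 0.04, against -0.06 for all tested genes, and 57 genes had a higher and 23 a lower mean, where 35.6% of all tested genes had a higher one. In that fit 3 genes rose (Fau, Rpl28 and Rps16), against a background of 6.26%, and Rps27l fell, against a background of 15.1%. When libraries were weighted by how well they fitted their group (arrayWeights), 20 genes rose, against a background of 10.8%, and Rpl7a and Rps27l fell, against a background of 27.7%. The largest of the 20 changes was that of Rps12, which had 298, 231 and 263 FPKM in RT-MPs, against 234, 222 and 224 FPKM in Control (log2 change 0.35, adjusted p = 0.00638 with weights; 0.21 and 0.215 without). Rpl7a, in which only RT-MPs replicate 1 lay below the Control values, had a log2 change of -0.58 with weights. It was -0.15 without weights and 0.11 without RT-MPs replicate 1. The weight of each library is not given here, and the weighted calls may rest largely on RT-MPs replicate 1. The part of the reads on rRNA-like genes in the higher level of replicate 3 was not tested.

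**Figure D1:**
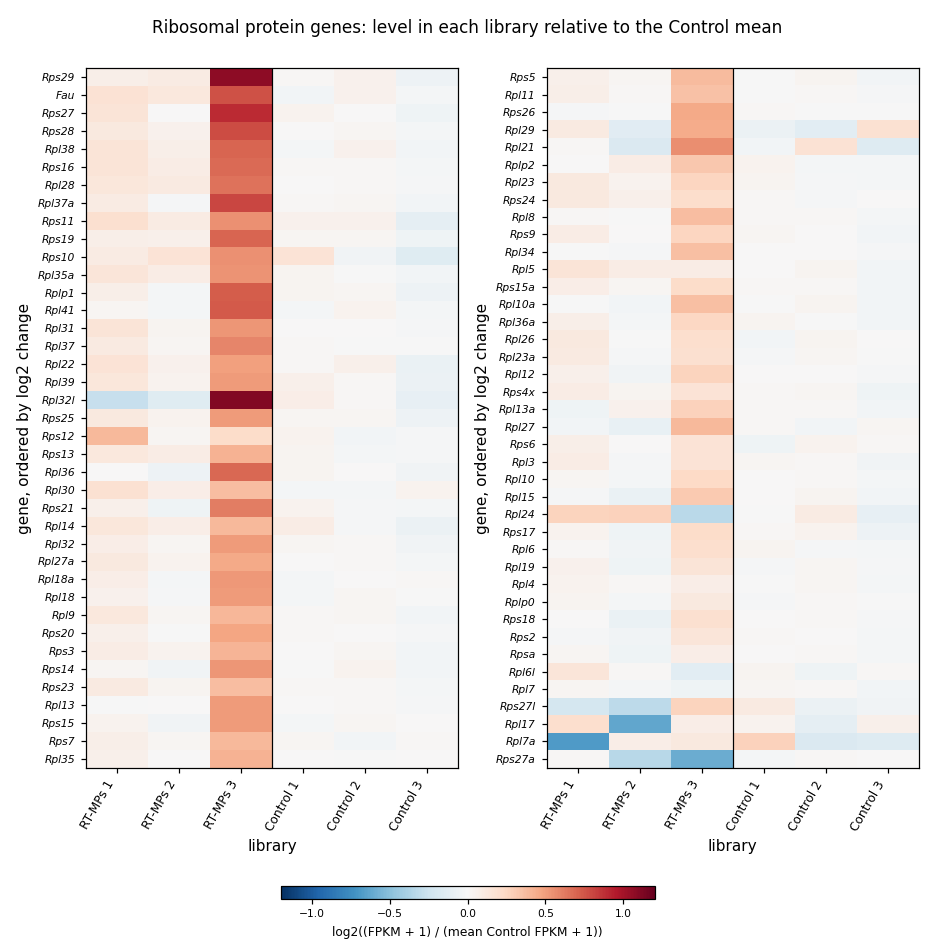
Each row is a tested ribosomal protein gene (all but 1 of the 80 are drawn) and each column 1 library, RT-MPs left of Control; colour gives log2((FPKM + 1) / (mean Control FPKM + 1)), red above and blue below the Control mean. The RT-MPs replicate 3 column is red for most genes (median 0.38), and RT-MPs replicates 1 and 2 are close to the Control mean (medians 0.07 and 0.01). Under rescaling to a common FPKM sum the median change over the genes becomes -0.15, and that over all tested genes -0.33.

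The Control libraries were close to each other. The coefficient of variation of FPKM over the 3 RT-MPs libraries had a median of 15.7% over the 80 genes, or 3.57% for RT-MPs replicates 1 and 2 alone, and over the 3 Control libraries a median of 2.20%. In Control, 70 of the 80 genes varied by less than 5%.

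Among the small subunit genes 32 of 33 were tested, 30 had a higher mean in RT-MPs, and the median log2 change was 0.17 with all libraries, 0.05 without RT-MPs replicate 3 and -0.14 after rescaling to a common FPKM sum. The 4 highest log2 changes of all 80 genes were in this subunit. Rps29, a zinc-binding protein of the small subunit head, had 681, 694 and 1363 FPKM in RT-MPs libraries 1 to 3, against 651, 671 and 619 FPKM in Control libraries 1 to 3. Its means were 913 ± 390.0 FPKM in RT-MPs and 647 ± 26.0 FPKM in Control (SD, n = 3 each), a log2 change of 0.42 with a standard error of 0.26 and an adjusted p of 0.338. All 3 RT-MPs values were above the Control values, but 2 of them by little, and without replicate 3 the log2 change was 0.09.

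Rps27, a zinc-finger protein of the solvent side, had 393, 354 and 659.8 FPKM in RT-MPs, against 364, 355 and 341 FPKM in Control, and the groups overlapped (log2 change 0.35, SE 0.22, adjusted p = 0.339). Rps28, which lies near the message exit, had 227, 216 and 359 FPKM in RT-MPs, against 209, 212 and 206 FPKM in Control. Its groups did not overlap, and its log2 change of 0.32 had an SE of 0.19 and an adjusted p of 0.312. In each of these genes replicate 3 lay far above the other 2 RT-MPs libraries: it was 1.98 times their mean for Rps29, 1.77 times for Rps27 and 1.62 times for Rps28.

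Fau encodes a fusion of a ubiquitin-like protein with the small subunit protein eS30. It had 900.3, 869 and 1358 FPKM in RT-MPs, against 782, 826 and 786 FPKM in Control, with no overlap between the groups. With all libraries the log2 change was 0.35 (SE 0.17, adjusted p = 0.227). Without replicate 3 Fau rose, with a log2 change of 0.15 and an adjusted p of 0.0407. Rps16, whose tail contacts tRNA in the P site, had 505, 483 and 727 FPKM in RT-MPs, against 458, 456 and 445 FPKM in Control, again with no overlap. Its log2 change was 0.31 (adjusted p = 0.241) in all libraries and 0.12 without replicate 3, where it rose (adjusted p = 0.0499). Rps12, Rps16, Rpl28, Rpl30 and Rpl41 are described because their values had been seen. Rps4x, the X-linked form of eS4 and the most abundant small subunit gene under the symbol rule, had 1354, 1310.0 and 1427 FPKM in RT-MPs, against 1293, 1301 and 1235 FPKM in Control. Its 3 RT-MPs values were all higher, yet the log2 change was only 0.09 (SE 0.07, adjusted p = 0.391).

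**Figure D2:**
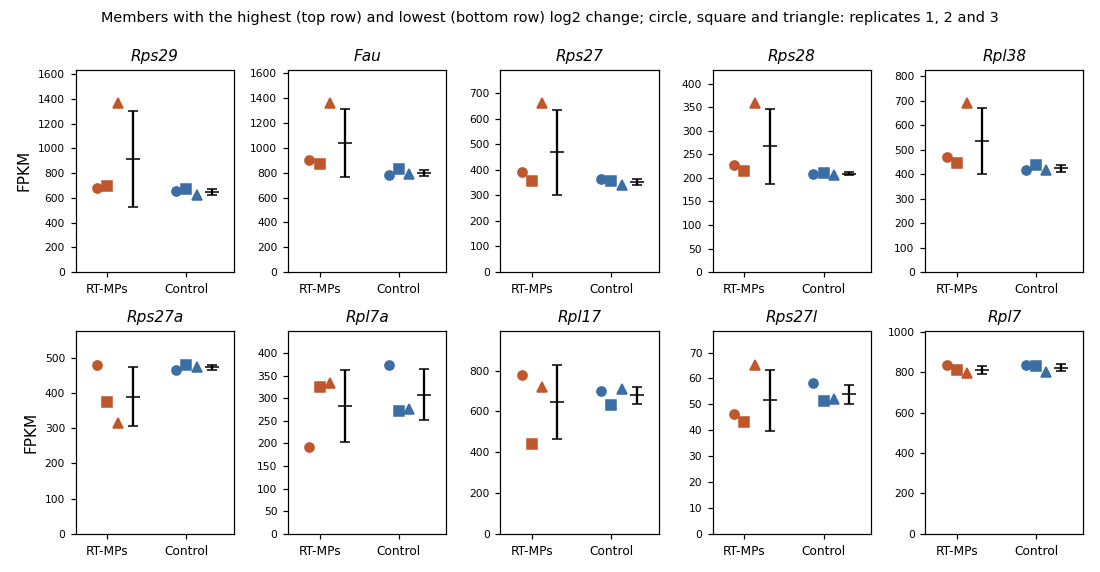
FPKM in each library of the 5 genes with the highest log2 change (top row) and the 5 with the lowest (bottom row), RT-MPs (orange) left of Control (blue); circles, squares and triangles are replicates 1, 2 and 3, and bars give the mean ± SD of 3 libraries. In the top row RT-MPs replicate 3 stands above all other libraries, for example 1363 FPKM for Rps29 against at most 694 FPKM elsewhere, and in the bottom row no common library is low.

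Among the large subunit genes 48 of 52 were tested, 45 had a higher mean in RT-MPs, and the median log2 change was 0.14 with all libraries, 0.03 without RT-MPs replicate 3 and -0.16 after rescaling to a common FPKM sum. Rpl38, a small protein known in mice for its part in the translation of Hox messages, had 472, 445 and 689 FPKM in RT-MPs, against 416, 439 and 415 FPKM in Control. The groups did not overlap (log2 change 0.31, SE 0.16, adjusted p = 0.262), and without replicate 3 the log2 change was 0.11 (adjusted p = 0.102). Rpl28 had 431, 422 and 615 FPKM in RT-MPs, against 392, 395 and 387 FPKM in Control. It rose without replicate 3 (log2 change 0.12, adjusted p = 0.0355), and with all libraries its log2 change was 0.30 (adjusted p = 0.234). Rpl30, which had the smallest adjusted p with all libraries, had 171, 159 and 194 FPKM in RT-MPs, against 148, 148 and 154 FPKM in Control, a log2 change of 0.21 with an SE of 0.08.

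Rpl4, a long protein that lines the exit tunnel, had 1491, 1458 and 1530.1 FPKM in RT-MPs, against 1443, 1466 and 1422 FPKM in Control (log2 change 0.05, SE 0.06, adjusted p = 0.633). Rpl23a, which sits at the tunnel exit where nascent chains meet targeting factors, had 1459.95, 1338 and 1542 FPKM in RT-MPs, against 1337, 1372 and 1345 FPKM in Control (log2 change 0.10, SE 0.07, adjusted p = 0.433). In both genes the groups overlapped. Rpl7 had 833, 809 and 794 FPKM in RT-MPs, against 834, 829 and 801 FPKM in Control, and its log2 change of -0.02 had an SE of 0.06.

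Rpl7a and Rpl17 were irregular in a way that followed no group. Rpl7a had 191, 325 and 333 FPKM in RT-MPs, against 373, 273 and 277 FPKM in Control, so that the lowest value was RT-MPs replicate 1 and the highest Control replicate 1 (log2 change -0.15, SE 0.24, adjusted p = 0.705). Rpl17, which lines the tunnel, had 779.7, 441 and 719 FPKM in RT-MPs, against 699, 629.7 and 709 FPKM in Control. Only RT-MPs replicate 2 was low, and the log2 change was -0.11 (SE 0.21, adjusted p = 0.746).

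The ribosomal stalk, a flexible arm of the large subunit that recruits elongation factors, consists of Rplp0 as its base and of Rplp1 and Rplp2. Rplp1 was the most abundant of all ribosomal protein genes, with 2015, 1887 and 3184 FPKM in RT-MPs, against 1968, 1957 and 1844 FPKM in Control (log2 change 0.26, SE 0.19, adjusted p = 0.420). Rplp0, often used as a reference gene, had 1672, 1603 and 1772 FPKM in RT-MPs, against 1619, 1642 and 1629 FPKM in Control (log2 change 0.04, SE 0.07, adjusted p = 0.687). Rplp2 had 259, 275 and 323 FPKM in RT-MPs, against 265, 254 and 254 FPKM in Control (log2 change 0.14, SE 0.09, adjusted p = 0.354). The groups overlapped in all 3 stalk genes, and RT-MPs replicate 3 was the highest library in each.

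Rpl5 and Rpl11 join the ribosome together with the 5S ribosomal RNA and are the proteins that bind Mdm2 when assembly fails. Rpl5 had 405, 388 and 387 FPKM in RT-MPs, against 364, 372 and 356 FPKM in Control. It was one of the few genes in which the RT-MPs libraries were all higher without replicate 3 standing out (log2 change 0.11, SE 0.06, adjusted p = 0.250; 0.12 and adjusted p = 0.0556 without replicate 3). Without replicate 3, Rpl5 was called under median-ratio scaling (log2 change 0.20, limma adjusted p = 0.0208), where 1313 of all 11915 genes were called higher. With copies summed it was not (0.09, limma adjusted p = 0.0975). The fit with library weights also called it (0.15, limma adjusted p = 0.00763). Rpl11 had 290.2, 278 and 353 FPKM in RT-MPs, against 275, 278 and 274 FPKM in Control (log2 change 0.15, SE 0.10, adjusted p = 0.357). Both belong to the 16 genes listed here that are mutated in Diamond-Blackfan anaemia, a human failure of red cell production. All 16 were tested, and on the FPKM scale each had its higher mean in RT-MPs, with a median log2 change of 0.15. The median was 0.06 without replicate 3, -0.02 under quantile normalization and -0.15 after rescaling to a common FPKM sum. The medians of all tested genes were -0.01 under quantile normalization and -0.33 after that rescaling. None of the 16 was called, 0 had an unadjusted p under 0.05, and voom called 0.

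Of 8 genes whose symbols mark them as paralogs of another ribosomal protein gene, 3 were tested. The tissue-restricted Rpl3l, Rpl10l and Rpl39l, which are known from muscle and testis, had at most 0.06 FPKM in any library, and the annotated pseudogene Rps4l at most 0.05 FPKM. Rpl10l was listed at 0 in all 6 libraries. Rps27l, a close relative of Rps27 that is a p53 target in human cells, had 46.3, 43.1 and 65.1 FPKM in RT-MPs, against 58.1, 51.3 and 52.2 FPKM in Control. With all libraries its log2 change was -0.08 (SE 0.15, adjusted p = 0.737). Without replicate 3 it was the only ribosomal protein gene that fell, by 0.26 on the log2 scale (adjusted p = 0.0339). With median-ratio scaling as well, the log2 change of Rps27l without replicate 3 was -0.18 and was not called (limma adjusted p = 0.0908). The annotated pseudogene Rpl6l had 124, 113 and 102 FPKM in RT-MPs, against 115, 108 and 113 FPKM in Control (log2 change 0.01, SE 0.08, adjusted p = 0.942). Rpl32l had 0.916, 1.10 and 3.99 FPKM in RT-MPs, against 1.45, 1.33 and 1.17 FPKM in Control, with the highest value again in replicate 3 (log2 change 0.23, SE 0.35, adjusted p = 0.687).

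Within RT-MPs replicate 3 the short genes stood furthest above Control. Over the 78 tested protein-coding genes, the Spearman correlation between coding length and the log2 ratio to the Control mean was -0.62 in replicate 3, -0.25 in replicate 1 and -0.13 in replicate 2. In Control, each library set against the other 2 gave -0.15, 0.11 and 0.02. These are descriptions across genes of single libraries, and the points share the same Control mean. In replicate 3 the 27 genes with a coding sequence of at most 400 bases had a median log2 ratio of 0.52, or 1.43 times the Control mean. The 30 genes with 401 to 600 bases had 0.39, or 1.31 times, and the 21 longer genes had 0.21, or 1.15 times. Rpl41, whose coding sequence of 75 bases is the shortest, had 855, 823 and 1396 FPKM in RT-MPs, against 825, 865 and 828 FPKM in Control. Over all 10293 tested protein-coding genes the same correlation was -0.32 in replicate 3, 0.01 in replicate 1 and 0.16 in replicate 2.

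**Figure D3:**
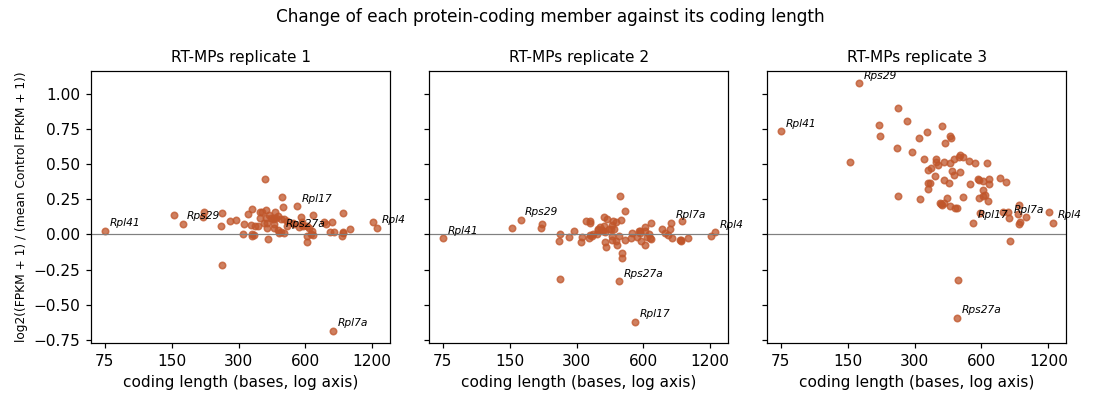
Coding length in bases (log axis) against log2((FPKM + 1) / (mean Control FPKM + 1)) for the 78 tested protein-coding ribosomal protein genes, 1 panel for each RT-MPs library and 1 point per gene. In replicate 3 the ratio declines with length (Spearman -0.62), from Rps29 at 1.07 to the genes over 600 bases at a median of 0.21, while replicates 1 and 2 stay near 0.

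The deposited levels span a wide range, although most of the proteins are needed in the same number. In Control, 33 genes had more than 500 FPKM and 12 more than 1000 FPKM. Among the 75 tested protein-coding genes that share less than 50% of their coding bases with another gene on the same strand, Control means ran from 53.9 FPKM (Rps27l) to 1923 FPKM (Rplp1), with a median of 445.5 FPKM. After Rps27l the lowest was Rpl21 at 89.5 FPKM, a gene with many reads on copies, as given below. The summed exon length used for the FPKM runs from 383 to 6270 bases over the genes. Over the 75 genes the Spearman correlation with that length was -0.51 for the Control mean in FPKM and 0.24 for Control reads. The range of FPKM is therefore not a range of message number alone.

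Exactly 4 ribosomal protein genes share more than 50% of their coding bases with exons of another annotated gene on the same strand, and apart from the tissue-restricted and pseudogene members these were the 4 lowest. Rpl24 shares 83.4% with Gm28037 and had 2.75, 2.77 and 1.49 FPKM in RT-MPs, against 2.11, 2.32 and 1.91 FPKM in Control. Rps10 shares 92.1% with a readthrough gene, RPS10-NUDT3, and had 2.53, 2.70 and 3.83 FPKM in RT-MPs, against 2.72, 2.21 and 1.99 FPKM in Control. Rpl13a shares 97.5% with Gm45713 and the microRNA Mir5121, and had 19.4, 20.9 and 24.5 FPKM in RT-MPs, against 20.4, 20.3 and 19.7 FPKM in Control. These levels are far below those of the other genes of the same particle. Rpl36al shares 95.3% with Gm49383 and had 0.405, 0.365 and 0.61 FPKM in RT-MPs, against 0.50, 0.629 and 0.651 FPKM in Control, too low to be tested. By contrast Rpl19, with 13.6% shared, had 1065, 989 and 1138 FPKM in RT-MPs, against 1014, 1043 and 1016 FPKM in Control. In 4 genes the overlap is on the opposite strand, and their Control means were 150.3 to 1351 FPKM. How reads in shared exons were counted is not given in the sources used here, so the levels of Rpl24, Rps10, Rpl13a and Rpl36al are uncertain. These genes were picked for description once their values had been seen.

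**Figure D4:**
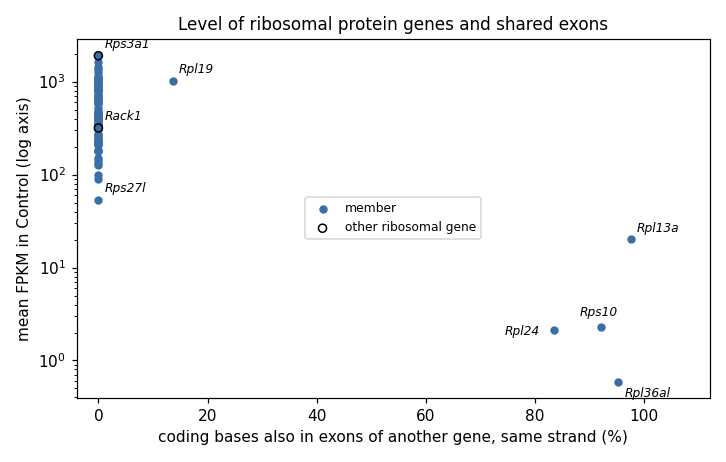
Share of coding bases that also lie in exons of another gene on the same strand (horizontal, percent) against mean FPKM in Control (vertical, log axis) for the protein-coding ribosomal protein genes above 0.1 FPKM (filled) and for Rps3a1 and Rack1 (open), small subunit genes outside the symbol rule. The 4 filled points beyond 50% lie at 20.1 FPKM or less, and every filled point below 50% lies at 53.9 FPKM or more.

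Ribosomal protein genes have many processed pseudogenes, copies of the message inserted elsewhere in the genome, and reads can be split between a gene and its copy. Among annotated transcripts, 549 copies matched 77 of the genes at 95% identity or more over at least 80% of the coding sequence. The search did not leave out genes at the same position, so a gene that shares exons with the ribosomal protein gene can also count as a copy. In 23 genes the copies held more than 10% of the summed reads and in 8 more than 30%. One gene whose value moves with its copies is Rps27a, which encodes ubiquitin fused to the small subunit protein eS31. The gene (chr11:29545846-29548109, minus strand, mm10) and the pseudogene Rps27a-ps2 (chr9:83409660-83410126, plus strand, mm10) differ at 1 of 467 aligned coding bases, the substitution A375G, counted from the first base of the coding sequence. The pseudogene Gm8430 also differs by 1 substitution, A71G. The coding sequences around A375G are shown because, within the aligned coding bases, a read must cross that base to tell gene from copy. The capital letter marks it.
Rps27a: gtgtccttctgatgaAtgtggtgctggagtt
Rps27a-ps2: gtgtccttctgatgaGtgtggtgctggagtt

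Rps27a had 478, 375 and 313 FPKM in RT-MPs, against 465, 478 and 474 FPKM in Control. Its means were 389 ± 83.5 FPKM in RT-MPs and 472 ± 6.83 FPKM in Control (SD, n = 3 each), the lowest log2 change of all 80 genes at -0.30 (SE 0.15, adjusted p = 0.233). The pseudogene had 1498, 3330 and 7413 reads in RT-MPs, against 2005, 1106 and 1023 reads in Control. The ratio of Rps27a-ps2 to Rps27a reads was 0.0726, 0.247 and 0.708 in RT-MPs, against 0.106, 0.0624 and 0.0566 in Control (exact two-sided permutation test, p = 0.2, the smallest possible being 0.1). RT-MPs replicates 2 and 3 were high and replicate 1 lay within the Control range. Summed with all 8 copies, Rps27a had 1008, 926 and 1072 RPM (reads scaled to the library's summed reads) in RT-MPs, against 1018, 1003 and 989.7 RPM in Control. The log2 change of the sum was -0.005 (adjusted p = 0.970), so the lower level of the gene alone was not present in the sum. The cause was not tested.

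**Figure D5:**
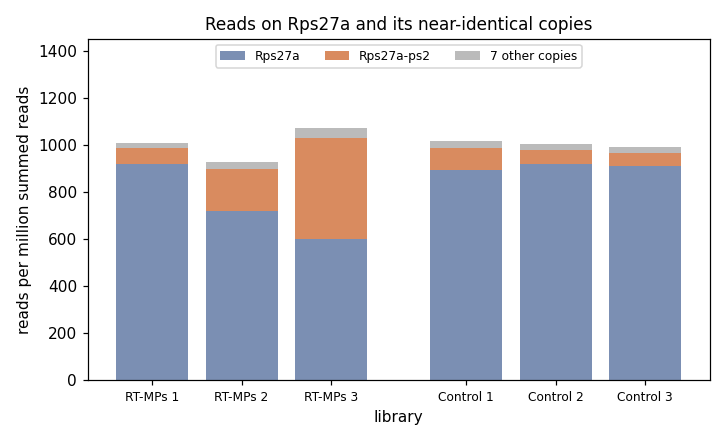
Stacked bars give RPM, reads scaled to the library's summed reads, on Rps27a (blue), on Rps27a-ps2 (orange) and on 7 other near-identical copies (grey) in each library, RT-MPs left of Control. The orange part is 426 RPM in RT-MPs replicate 3 and 51.6 RPM in Control replicate 3, while the full bars lie between 926 and 1072 RPM in all 6 libraries.

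The copies held nearly all reads of Rps10 and Rpl24, which are also among the genes with shared exons. Rps10 itself had 128, 114 and 150 reads in RT-MPs, against 130, 96 and 89 reads in Control. Its copy Rps10-ps2, which differs by 5 substitutions in 495 coding bases, had 4467, 3560 and 5246 reads in RT-MPs, against 3981, 3911 and 3682 reads in Control. For Rpl24 the copies held 90.5% of the summed reads, mostly on Gm9385 (chr9:116040593-116041064, minus strand, mm10). It differs from the gene (chr16:55966275-55971435, plus strand, mm10) by the single substitution C313T, shown in capitals within the coding sequence.
Rpl24: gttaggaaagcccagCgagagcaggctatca
Gm9385: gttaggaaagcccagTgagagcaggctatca

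Gm9385 had 276, 251 and 457 reads in RT-MPs, against 244, 243 and 253 reads in Control, with RT-MPs replicate 3 the highest. Summing gene and copies brought the log2 change of Rpl24 to 0.36 with all libraries, against 0.08 for the gene alone, and neither passed (adjusted p = 0.338 and 0.794). The other genes with more than 30% of reads on copies were Rpl36al, Rpl21, Rpl29, Rpl23, Rpl14 and Rpl6l. The copies of Rpl6l also match Rpl6 and were added to Rpl6 in the sum, so its own log2 change is the same in both fits. Summing did not even out Rpl7a, which then had 235, 366 and 391 FPKM in RT-MPs, against 402, 319.7 and 318 FPKM in Control. With copies summed, the median log2 change of the ribosomal protein genes was 0.16, and 0 of these genes were called. Over all 11697 genes tested in that fit, 166 were called higher and 359 lower. Counted by symbol alone, 297 rows of the tables carry -ps symbols of ribosomal protein genes, of which 93 had a mean of at least 1 FPKM and 117 were at 0 in every library. These rows overlap with the copies, since 168 of the 549 copies have a symbol with -ps.

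A further question was whether the set took a larger part of the messages. The 85 genes took 7.73%, 7.36% and 9.31% of reads in RT-MPs, against 7.43%, 7.45% and 7.28% in Control. The means were 8.13 ± 1.04% in RT-MPs and 7.39 ± 0.0954% in Control (SD, n = 3 each), a difference of 0.745 percentage points (exact two-sided permutation test, p = 0.3, where 0.1 is the smallest p that 3 against 3 libraries allow). Without replicate 3 the difference was 0.156 percentage points. As a share of the FPKM sum the genes took 14.99%, 14.5% and 9.68% in RT-MPs, against 14.4%, 14.4% and 14.1% in Control, which turns the difference to -1.24 percentage points. The ratio of small to large subunit reads was 0.633, 0.632 and 0.628 in RT-MPs, against 0.628, 0.632 and 0.627 in Control (exact permutation p = 0.2). Taken on FPKM, the ratio was 0.5886, 0.5919 and 0.5896 in RT-MPs, against 0.5813, 0.5878 and 0.5797 in Control. There the groups did not overlap (exact permutation p = 0.1, the smallest possible). In these bulk libraries fewer cells of a kind and less RNA per cell cannot be told apart.

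The starts of the messages were searched for the pyrimidine tract in RefSeq promoter sequences (GRCm38.p6), which held 62 of the 82 protein-coding genes. A tract was searched on the gene's strand as a C followed without a break by further C or T letters, at least 5 in all. One promoter, the first listed, was read per gene, both for the ribosomal protein genes and for all 27025 genes of the table. In 13 genes (20.97%) a run of that length was counted from the annotated start base, against 2.49% of all genes, and such a run may also reach upstream of that base. A run that began within 5 bases of the start on either side was present in 28 genes (45.2%), against 18.5% of all genes. The windows below run from 10 bases before the annotated start to 20 bases into the transcript, with the tract in capitals. Fau, Rps27, Rpl38 and Rpl28 are shown as genes with high log2 changes, Rplp2 as a stalk gene, and Rps28 as one with a high log2 change and no tract of that length.
Fau, chr19:6057937-6057966, plus strand: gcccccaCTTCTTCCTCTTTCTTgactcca
Rps27, chr3:90213629-90213658, minus strand: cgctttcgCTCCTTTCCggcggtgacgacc
Rpl38, chr11:114668570-114668599, plus strand: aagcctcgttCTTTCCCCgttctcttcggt
Rpl28, chr7:4792955-4792984, plus strand: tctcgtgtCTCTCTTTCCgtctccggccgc
Rplp2, chr7:141447641-141447670, plus strand: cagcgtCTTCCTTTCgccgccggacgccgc
Rps28, chr17:33824543-33824572, minus strand: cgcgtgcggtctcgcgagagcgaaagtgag

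The 28 tested genes with a tract within 5 bases of the start had a median log2 change of 0.14 (0.04 without RT-MPs replicate 3), and the 30 tested genes without one had 0.17 (0.06 without replicate 3). The ranges were -0.15 to 0.35 with a tract and 0.02 to 0.32 without. The median coding lengths were 420.0 and 445.5 bases, and the ranges of change overlapped. A gene counted without a tract may still begin with one, because only the annotated start of the first listed promoter was read. Rpl35a was counted without one, yet another of its listed promoters has a tract of 13 bases. The values therefore compare annotated starts and cannot show whether messages with and without a tract differ.

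Many ribosomal protein genes carry small nucleolar RNAs, guides for the modification of ribosomal RNA, in their introns. The annotation places 56 of them inside 29 of the genes. The 29 host genes had a median log2 change of 0.14, which was 0.04 without RT-MPs replicate 3 and -0.17 after rescaling to a common FPKM sum. After that rescaling the median of all tested genes was -0.33. Of the 56 small RNAs, 27 had a read in some library and 18 were tested. The libraries were made from mRNA, and the highest count of any of them was 34 reads, for Snord72 in RT-MPs replicate 3. A read placed there may come from the host's intron and not from the small RNA. Of the 18, 1 was called, against 1.29% of all tested genes called higher and 2.7% called lower, and it is not described here.

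Other genes of the ribosome and its supply were read from lists in the same fit. The symbol rule leaves out 6 listed genes that belong to the cytosolic ribosome or have related symbols. All 6 were tested and none was called (1 had an unadjusted p under 0.05, and voom called 0). The small subunit gene Rps3a1 had a log2 change of 0.07, Rack1, the scaffold on the small subunit head, 0.09, Rps27rt 0.14, Rpl22l1 -0.03 and Rpl7l1 -0.21. Rpl7l1 had 21.2, 17.96 and 20.2 FPKM in RT-MPs, against 21.6, 23.6 and 23.6 FPKM in Control, with no overlap (adjusted p = 0.155). Messages outside the ribosome that carry the same kind of tract, such as the elongation factors, gave 0 called of 23, 5 with an unadjusted p under 0.05, against 27.3% of all tested genes, and a median log2 change of -0.02. Without RT-MPs replicate 3, 2 of the 23 rose and 1 fell (6.26% and 15.1% of all tested genes), with a median of 0.01, and voom called 0 with all libraries.

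Among factors that chaperone ribosomal proteins, Heatr3 and Ltv1 fell. Of 16 tested genes of the 5S particle and of ribosomal protein chaperones, 0 rose and 2 fell, against 1.29% and 2.7% of all tested genes, with a median log2 change of -0.19, and 9 had an unadjusted p under 0.05, against 27.3%. Without RT-MPs replicate 3, 2 of the 16 rose and 9 fell, against 6.26% and 15.1% of all tested genes, with a median of -0.18. Heatr3, whose human and yeast forms help carry Rpl5 and Rpl11 into the nucleus, had 6.06, 5.69 and 5.30 FPKM in RT-MPs, against 9.60, 8.92 and 9.91 FPKM in Control. It fell by 0.65 on the log2 scale (SE 0.07, adjusted p = 0.0207), and by 0.61 without RT-MPs replicate 3 (adjusted p = 0.00575). Ltv1, an assembly factor of the small subunit, had 31.0, 30.8 and 27.4 FPKM in RT-MPs, against 39.6, 36.7 and 37.6 FPKM in Control, and fell by 0.34 (SE 0.07, adjusted p = 0.0489). The groups did not overlap in either gene. Leaving out any library other than RT-MPs replicate 3 gave adjusted p-values of 0.0499964 to 0.177 for Heatr3, which passed only without RT-MPs replicate 1, and of 0.0804 to 0.230 for Ltv1, with log2 changes from -0.69 to -0.31. With no filter on low values the adjusted p was 0.0543 for Heatr3 and 0.0915 for Ltv1, and after rescaling to a common FPKM sum it was 0.431 for Heatr3 and 0.580 for Ltv1. Ltv1 also missed the threshold under median-ratio scaling (0.0751), quantile normalization (0.0517), a pseudocount of 0.1 (0.0515) and limma without the trend setting (0.0575). On a scale set by the geometric mean of the ribosomal protein genes the adjusted p was 0.135 for Heatr3 and 0.185 for Ltv1, and the direction was the same in each of these fits.

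Of 13 tested regulators of ribosomal protein gene transcription, 1 rose and 0 fell, against 1.29% and 2.7% of all tested genes, with a median log2 change of 0.06. Without RT-MPs replicate 3, 3 of the 13 rose and 1 fell, against 6.26% and 15.1%, with a median of 0.11. The gene that rose was Mxd1, a partner of Max that opposes Myc, with 3.99, 3.91 and 4.16 FPKM in RT-MPs, against 1.87, 2.57 and 2.05 FPKM in Control (log2 change 0.67, SE 0.10, adjusted p = 0.0293). None of 20 mTORC1 and tract regulators was called (5 with an unadjusted p under 0.05, median log2 change -0.12), nor any of 14 quality control and hibernation factors (5 with an unadjusted p under 0.05, median -0.04), where 27.3% of all tested genes had such a p. The voom model called 0 in both lists. Without RT-MPs replicate 3, 0 of the 20 regulators rose and 1 fell, and of the 14 factors 1 rose and 3 fell. Over all tested genes in that fit 6.26% rose and 15.1% fell. The mitochondrial ribosomal protein genes, which serve a separate ribosome, had a median log2 change of -0.06 over 74 tested genes. Without RT-MPs replicate 3, 3 of them rose and 9 fell, against 6.26% and 15.1% of all tested genes, with a median of -0.11. With all libraries 0 rose and 1 fell, against 1.29% and 2.7%. The gene that fell was Mrpl42, with 11.04, 10.3 and 10.6 FPKM in RT-MPs, against 13.9, 13.4 and 14.4 FPKM in Control (log2 change -0.35, SE 0.06, adjusted p = 0.0377). Both calls rest on all libraries other than RT-MPs replicate 3 being present: leaving out any one of those gave adjusted p-values of 0.0669 to 0.192 for Mxd1 and 0.0703 to 0.216 for Mrpl42, with the same direction. Neither passed with no filter on low values (0.0807 for Mxd1 and 0.0701 for Mrpl42), after rescaling to a common FPKM sum (0.580 for each) or on the scale of the ribosomal protein genes' geometric mean (0.164 for Mxd1 and 0.166 for Mrpl42). Mrpl42 also missed the threshold under median-ratio scaling (0.0691), quantile normalization (0.0590) and scaling to protein-coding reads (0.0521), again in the same direction.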

How the data were processed

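The authors deposited FPKM values for 54446 genes in each of 6 libraries, per the file headers with Ensembl identifiers and symbols. The aligner was HISAT2 and the genome mm10, per the submitters' processing notes. What counted the reads, with which annotation and strand setting, and how it treated reads with several matches is not given in the sources used here. Groups came from the labels. GENCODE M21, which held 54409 of the identifiers, gave lengths, positions and overlaps. FPKM times summed exon length and library total gave whole reads within 0.1 for 98.9% to 99.1% of low values, and these recovered reads were used for depth, shares and copies. Reads summed over genes exceed the depths given here slightly, since which reads the authors' totals count is not stated.

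The contrast RT-MPs minus Control was fitted in R 4.3.3 with limma 3.58.1 (two-sided moderated test with trend=TRUE in eBayes) on log2(FPKM + 1) in 11915 genes with a mean of at least 1 FPKM, with Benjamini-Hochberg adjustment over all of them and a threshold of 0.05. Log2 changes are on the log2(FPKM + 1) scale, which understates those of low genes. Because FPKM is scaled to a total, reads taken up by a few abundant genes lower the rest. The procedure was tested on simulated data with the same spread in every library. That test therefore does not cover a group with an unlike library such as RT-MPs replicate 3. Copies were found with blastn 2.17.0 (at least 95% identity, 80% of the coding sequence), and genes overlapping the member were not left out. Promoters are from RefSeq. Full statistics are given for called members, the 5 highest and 5 lowest log2 changes, the 5 most abundant genes, stalk, ubiquitin fusions, the Rpl5 and Rpl11 pair and paralogs; of other lists, for called genes. Some single genes are not reported here by name. The members and lists were chosen with earlier results of these data known. Alternatives were other pseudocounts, filters, scalings, library weights, voom on recovered reads, a term for the replicate number, and leaving out each library; copies summed, and the pairings of that or of median-ratio scaling with leaving out RT-MPs replicate 3, were chosen after seeing the data.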

Additional observations from a re-analysis of the deposited data

How the results depend on the processing

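No member was called higher or lower with another pseudocount or filter, under median-ratio, quantile, common-sum or protein-coding scaling, with voom on recovered reads (199 genes higher and 601 lower over all genes) or with copies summed. Weighting libraries by their fit (arrayWeights) called 20 members higher and 2 lower (Rpl7a and Rps27l), with 1281 and 3295 over all genes. These weighted calls may rest largely on RT-MPs replicate 1. Leaving out 1 library gave 0 to 3 members called higher and 0 to 1 lower, medians of 0.04 to 0.23 and share differences of 0.156 to 1.13 percentage points; the highest counts and lowest values came without RT-MPs replicate 3. Without that library, median-ratio scaling called 18 members higher and 0 lower (1313 of all 11915 genes higher and 846 lower). Summing copies without it called 2 higher and 1 lower (778 and 1857 of all 11697 genes). After rescaling to a common FPKM sum the members' median became -0.15 and that of all genes -0.33; the share of the FPKM sum differed by -1.24 percentage points. The cause was not tested. Median-ratio scaling gave a members' median of 0.26 with all genes at 0.00, and quantile normalization 0.03 with all genes at -0.01. Over all tested genes, 154 were called higher and 322 lower. Leaving out Control replicate 1 or 3 gave 0 and 0, Control replicate 2 gave 1 and 1, RT-MPs replicate 1 gave 35 and 39, RT-MPs replicate 2 gave 5 and 5, and RT-MPs replicate 3 gave 746 and 1802. The counts were 255 and 122 under median-ratio scaling, 195 and 153 under quantile normalization, 19 and 35 after common-sum scaling, and 11 and 15 with no filter. Of 439 alternative values for the 20 named members, 388 kept direction and call, 37 changed sign with no call, and 14 were newly called.

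The labels do not say whether equal replicate numbers pair the libraries. Deviations from the group means correlated at 0.0959, -0.082 and -0.0288 for numbers 1 to 3. The RT-MPs means include the unlike replicate 3, which enters every RT-MPs deviation, so these correlations cannot decide whether the libraries are paired. With the replicate number as a block, 0 members and 0 of all genes were called either way, and the members' median was 0.15. The called genes of other lists lost their calls there, with adjusted p-values of 0.103 for Heatr3, 0.136 for Ltv1, 0.131 for Mrpl42 and 0.118 for Mxd1.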
